A study of Mus musculus with 8 samples.

Results

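The arrays described here are those of the control brains of a mouse study of methanol, 4 of the 8 arrays analysed, chosen because their titles name normal saline, and they are called saline 1 to saline 4. They are described as a baseline: which genes gave the brightest signal in these brains, and how far the brains differed from one another. On these 4 arrays 10555 of 25697 probes were detected on every array (detection p under 0.05), and 9972 of these probes carried 1 gene symbol, which gave 7654 measured genes. A further 3307 probes were detected on 1 to 3 of the saline arrays and 11835 on none.

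The labels describe male mice given 350 µl of normal saline and brain RNA taken 2 h later, as the counterpart of mice given methanol at 120 mg/kg in the same volume. The methods describe male BALB/c mice, an inbred strain, that breathed methanol vapor or, as controls, water vapor from soaked cotton wool for a shorter time, in larger groups. The labels name no route and do not say that each array held RNA of 1 mouse, so the spread between arrays may hold technical as well as animal differences. RNA of whole brain homogenate was hybridised to Illumina MouseRef-8 BeadChips, on which the brightness of beads that carry a short probe reports the amount of its transcript. No control brain was set against a methanol brain here.

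A homogenate of brain mixes regions that use very different genes. Medium spiny neurons of the striatum receive dopamine and make neuropeptides, the choroid plexus secretes cerebrospinal fluid and the thyroid hormone carrier transthyretin, and the meninges are sheets of fibroblasts that wrap the brain and stay attached to it to a varying degree. Genes of one region or of the brain's surface are used as markers of that tissue, and genes of neurons, astrocytes and vessels as markers of cells found throughout the brain.

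Un-normalized median intensity was between 175.6 and 195.8 on the saline arrays, with 11855 to 12199 probes detected on each, and between 179.5 and 193.7 with 11291 to 12366 probes detected on the methanol arrays. After background correction and quantile normalization, Pearson's r between pairs of saline arrays over the detected probes was from 0.983 to 0.990. These probes share an array and a wide range of brightness, so that r is high for any such pair. Saline 1 and saline 4 were the least alike pair, with 107 probes (1.01% of those detected) more than 2-fold apart, against 20 probes (0.19%) between saline 1 and saline 2, the most alike pair. In a principal component analysis, component 1 (49.4% of the variance) ran from saline 1 to saline 4, and component 2 (27.9%) from saline 3 to saline 4.

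The tissue was first checked against marker genes. All 11 astrocyte markers and all 9 microglial markers with a probe were measured, as were 10 of 13 neuronal, 9 of 11 oligodendrocyte and 15 of 16 cerebral cortex markers. The neuronal genes Snap25 and Tubb3 were detected on no saline array. None of the 8 pituitary markers with a probe, growth hormone (Gh), prolactin (Prl) and Pomc among them, was detected on any saline array. None of the 13 hindbrain markers with a probe was detected on all 4, and 10 of them, including the Hox genes Hoxa5 and Hoxb8 and the noradrenaline enzyme Dbh, on no saline array. The serotonin transporter gene Slc6a4 was detected on saline 2 to 4, Hoxa4 on saline 2 and the serotonin enzyme gene Tph2 on saline 1. Of 13 cerebellar markers with a probe 7 were detected on none, including the Purkinje cell gene Pcp2 and the granule cell receptor gene Gabra6, and 5, Cbln1, Zic1, Neurod1, Gdf10 and Gabrd, were measured on all 4 arrays. Most hindbrain markers, and Pcp2 and Gabra6, were thus below detection in a tissue described as whole brain. Of 9 genes of midbrain dopamine neurons with a probe, 7 were detected on none, among them tyrosine hydroxylase (Th) and the dopamine transporter Slc6a3. A probe below its detection limit does not show that the transcript was absent.

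The sex named in the labels was checked in the same way. Xist, the RNA that coats the inactive X chromosome of female cells, was measured at 8.86, 8.91, 8.98 and 8.96 (log2 intensity) on saline 1 to 4, well above the lowest detected value of 5.40 to 5.45 per array. Eif2s3y and Kdm5d, both on the Y chromosome, were detected on no saline array, and Uty, also on the Y chromosome, on saline 1 only. These values go against the label of male mice on all 4 arrays, over which Xist had an SD of 0.06.

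The brightest genes were those of iron storage, protein folding, energy supply, translation and the cytoskeleton. Fth1, the heavy chain of ferritin, had the highest mean log2 intensity at 15.18, followed by Hspa8, a constitutive chaperone, at 14.83 ± 0.09 (SD, n = 4 throughout) and Ckb, the brain creatine kinase, at 14.80 ± 0.11. Atp5b, the catalytic subunit of mitochondrial ATP synthase, and Rplp1, a protein of the ribosomal stalk, both averaged 14.50 ± 0.02. Brightness also depends on how well a probe binds, so that this is an order of signal and not of transcript number.

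**Figure D1:**
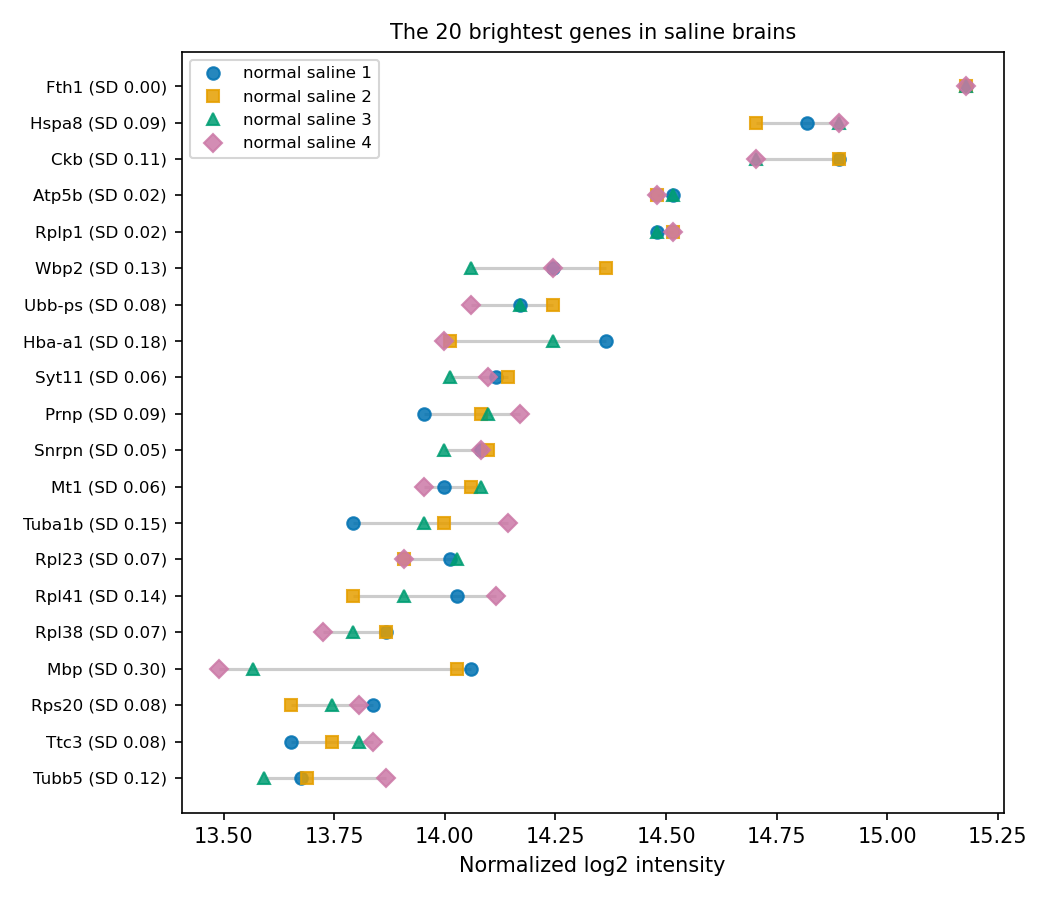
Normalized log2 intensity (x axis) of the 20 genes with the highest mean, one row a gene, with a symbol for each saline array and a grey line over the range. Mbp has the widest range among them, 13.49 to 14.06, and Fth1 has the same value on every array.

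The rest of the 20 brightest genes lay between 13.70 and 14.23. They held the ribosomal protein genes Rpl23, Rpl41, Rpl38 and Rps20, the tubulin genes Tuba1b and Tubb5 of microtubules, the ubiquitin-related Ubb-ps, the metallothionein Mt1, the prion protein gene Prnp, the vesicle protein gene Syt11, the imprinted Snrpn, Ttc3, Wbp2, the myelin gene Mbp and the hemoglobin gene Hba-a1. Cplx1, a presynaptic regulator of vesicle release, was the first gene outside these 20 at 13.66, against 13.70 for Tubb5, the last inside. Probes of one gene could differ widely in signal: the 5 detected probes of Ttc3 averaged from 10.10 to 13.76, and the 3 of Mbp averaged 13.78, 9.37 and 9.34.

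By gene family, 24 of 55 measured ribosomal protein genes (43.6%) were among the 200 brightest genes, which are 2.61% of all those measured. The same held for 6 of 14 subunits of cytochrome c oxidase, 5 of 15 of ATP synthase, 4 of 10 tubulins and 3 of 6 of the 14-3-3 adaptor proteins, against 2 of 32 subunits of respiratory complex I. The median SD of these families ran from 0.086 for ATP synthase and 0.095 for ribosomal proteins to 0.152 for tubulins, and the median was 0.135 over all genes and 0.105 over the brightest of 10 equal groups of them by brightness. The widest tubulin gene was Tuba3a with an SD of 0.34.

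Within the 20 brightest genes, Mbp and Hba-a1 had the largest SD. Mbp, which encodes a structural protein of myelin, had 14.06, 14.03, 13.56 and 13.49 on saline 1 to 4 (SD 0.30). It was thus higher on saline 1 and 2 than on saline 3 and 4, as was its probe that averaged 9.34, with 9.74, 9.44, 9.21 and 8.98, whereas the probe that averaged 9.37 had 9.30, 9.36, 9.30 and 9.53. Hba-a1, the alpha globin of red blood cells, had 14.36, 14.01, 14.24 and 13.997 (SD 0.18).

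Quantile normalization gives every array the same set of values, so the gene at the top rank of every array has no spread left. Fth1 held that rank on all 4 arrays and its SD was 0, but 0.13 when each array was scaled to the same median instead. A second probe of Fth1 had 14.70, 14.82, 14.82 and 14.75 (SD 0.06). The SD of Atp5b, 0.02 as described, was 0.07 with that scaling. Spread at the very top of the range is thus a bound set partly by the method.

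Most genes differed little between the 4 brains. The median SD was 0.135 over the 7654 genes, their 95th percentile was 0.338 and their 99th percentile 0.533. The median fell with brightness, with the genes cut into 10 equal groups by brightness, at 0.185 and 0.190 in the 2 dimmest groups against 0.105 in the brightest. An SD above 0.5 was found for 92 of 7654 genes, which is 1.2% of them, and for 105 of 10555 detected probes (0.995%), and an SD above 1 for 11 genes and 13 probes. The count of probes above 0.5 was 176 without saline 2, and 26 without background correction, since the background then added to every intensity shrinks each difference. At this limit Gabrd was the last gene inside with 0.501 and Fam78a the first outside with 0.4997. No gene was among both the 20 brightest and the 20 most variable.

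**Figure D2:**
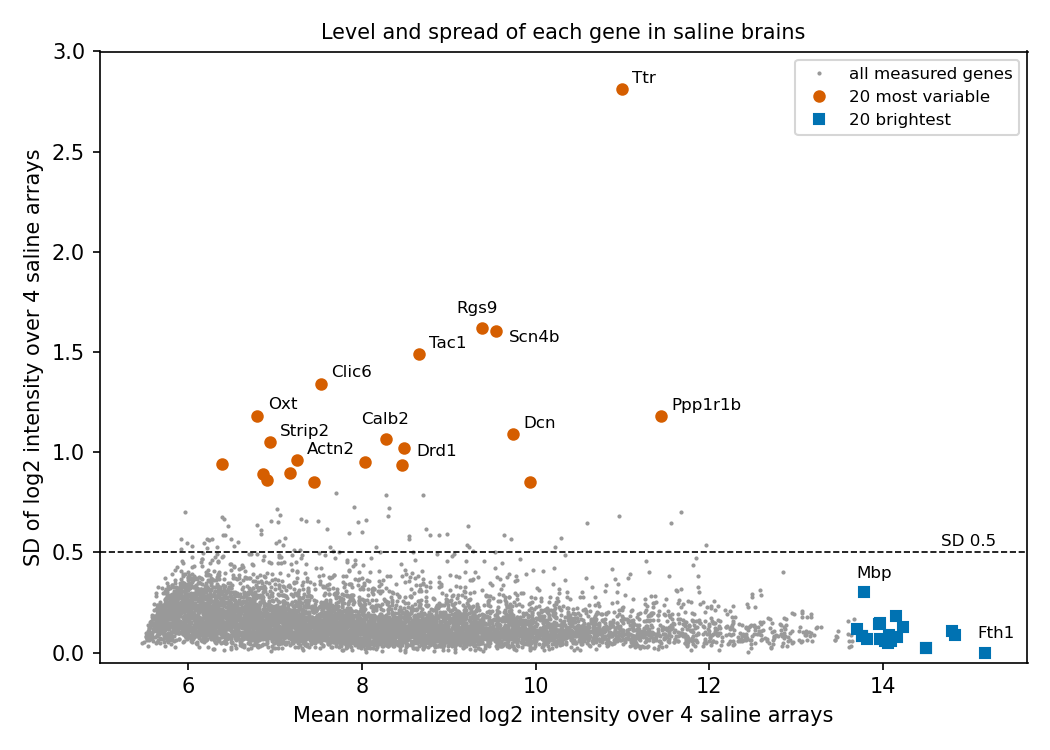
Mean normalized log2 intensity over the 4 saline arrays (x axis) against its SD over the same arrays (y axis), one point a gene, with the 20 most variable genes in orange and the 20 brightest in blue. The cloud of genes lies near an SD of 0.135, Ttr stands at 2.81, and the brightest genes reach at most 0.30.

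The steadiest genes above the median brightness, apart from Fth1, were Pop4, a subunit of RNase P, with 8.50, 8.50, 8.49 and 8.50 (SD 0.004), the mitochondrial ribosomal protein gene Mrpl47 with an SD of 0.005, the neuroendocrine chaperone gene Scg5 with 0.005 and the apoptosis inhibitor gene Birc2 with 0.005. They were followed by Timm44 of mitochondrial protein import, the neuronal RNA-binding protein gene Elavl3, Tctex1d2, Ranbp1 of nuclear transport and Mrpl49, with SDs from 0.006 to 0.011. With 4 arrays and 7654 genes, some SDs are this small without the gene being steadier than others, and these values serve only to describe the arrays.

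Widely used reference genes differed among themselves. Gapdh, the glycolytic enzyme, had 13.65, 13.68, 13.61 and 13.61 (SD 0.03), beta-actin (Actb) 12.78, 12.75, 12.68 and 12.71 (SD 0.04), and Hprt of purine salvage 11.43, 11.39, 11.39 and 11.42 (SD 0.02). Such small SDs depend partly on the normalization. With median scaling the SD of Actb was 0.09, while that of the reference gene B2m was 0.088 against 0.098. Tbp, the TATA-binding protein, was the least steady of the 9 reference genes measured, with 6.80, 7.11, 6.48 and 6.59 (SD 0.28). Their median SD was 0.098, and 4 of the 9 lay above the median of all genes, Tbp, the ribosomal protein gene Rpl13a (SD 0.18), the transferrin receptor gene Tfrc (SD 0.15) and Gusb (SD 0.14).

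The most variable gene by a wide margin was Ttr, which encodes transthyretin, with 10.57, 11.50, 14.36 and 7.54 on saline 1 to 4 (SD 2.81). Saline 3 was 114-fold above saline 4, and the un-normalized intensities stood in the same order, with 1626, 3132, 21913 and 333.7. The next 3 were genes of striatal neurons. Rgs9, a brake on dopamine receptor signaling, had 11.12, 9.32, 9.84 and 7.23 (SD 1.62), Scn4b, a sodium channel beta subunit, had 11.48, 9.58, 9.58 and 7.55 (SD 1.60), and Tac1, the precursor of substance P, had 10.03, 8.23, 9.61 and 6.74 (SD 1.49). Each of the 3 was highest on saline 1 and lowest on saline 4, 14.8-fold, 15.2-fold and 9.8-fold apart.

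**Figure D3:**
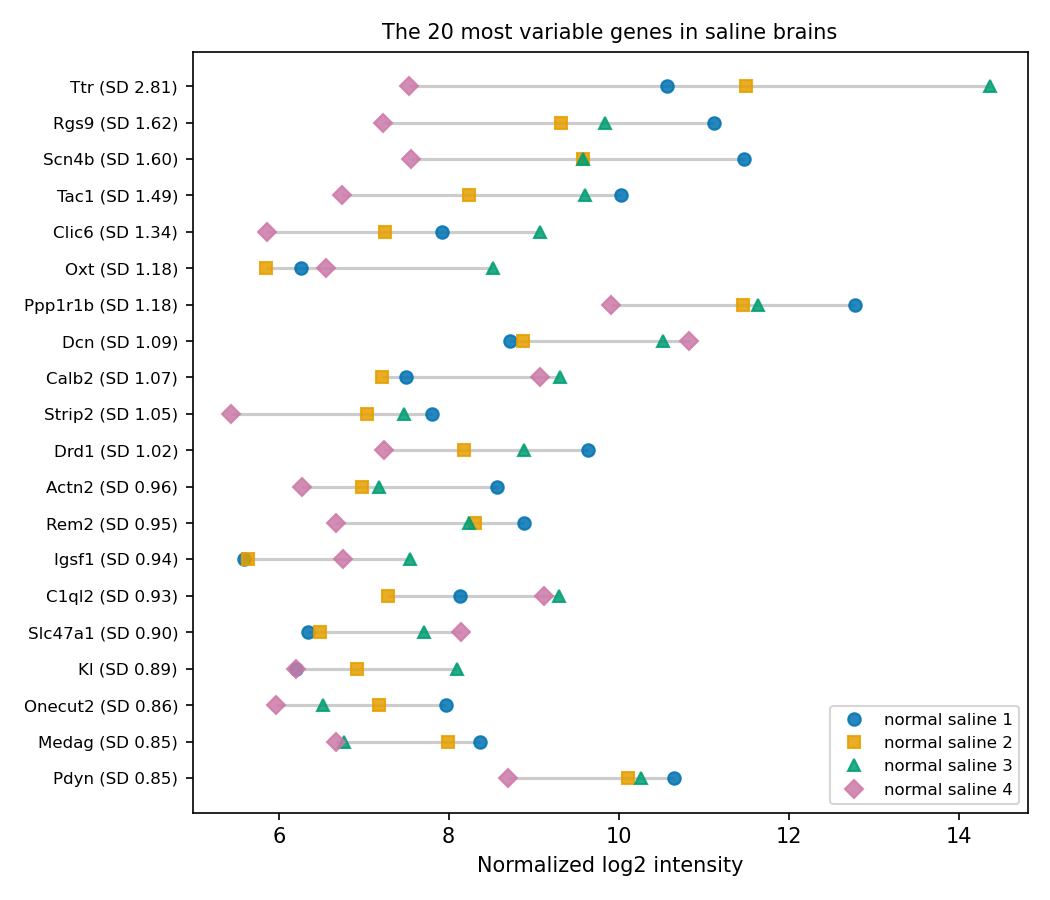
Normalized log2 intensity (x axis) of the 20 genes with the largest SD, one row a gene, with a symbol for each saline array and a grey line over the range. Saline 4 is the lowest array for Ttr, Rgs9, Scn4b, Tac1 and Ppp1r1b and the highest for Dcn and Slc47a1.

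Of the 20 most variable genes 12 were in one of the marker lists and 8 in none, and of all 92 genes with an SD above 0.5, 23 were in a list and 69 in none. The lists and the choice of these arrays were made with earlier results of the same data known. In a homogenate, fewer cells of a type and less RNA per cell cannot be told apart, and neither can be told from a piece of tissue that was left in or out.

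The striatum list varied most. All 6 members measured on every array had an SD above 0.5 (median 1.10), against 1.2% of all measured genes. Under the processing alternatives that kept all arrays, the SD of Rarb fell as low as 0.475, and the other members stayed above 0.5. All 6 were highest on saline 1 and lowest on saline 4, against 11.3% of all measured genes. Their median deviations from each gene's own mean were 1.24, -0.12, 0.37 and -1.39 on saline 1 to 4. Besides Rgs9 and Tac1, Ppp1r1b, the dopamine-regulated phosphatase inhibitor DARPP-32, had 12.78, 11.46, 11.64 and 9.91 (SD 1.18), and Drd1, the D1 dopamine receptor, had 9.64, 8.18, 8.89 and 7.24 (SD 1.02). Pdyn, the precursor of dynorphin, had 10.65, 10.11, 10.27 and 8.70 (SD 0.85), and the retinoic acid receptor gene Rarb had 8.71, 7.51, 7.79 and 6.78 (SD 0.80). Saline 4 stood below the other 3 arrays for each of them, and saline 2 and saline 3 lay between.

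The other 7 striatal genes with a probe missed the requirement of detection on every array, and all 7 were detected on saline 1 and none on saline 4. Drd2, the D2 dopamine receptor, had 7.49, 6.0, 6.18 and 5.01, and Ido1, an enzyme of tryptophan breakdown, had 9.35, 7.13, 6.92 and 5.07. Pde10a, a phosphodiesterase of medium spiny neurons, had 7.38, 5.69, 6.08 and 4.97, and Syndig1l had 8.33, 6.19, 6.52 and 4.52. The values of saline 4 are below detection and are bounds only. Isl1, a transcription factor of striatal and cholinergic neurons, was the one gene of the 7 that was not highest on saline 1, with 7.18 there against 7.23 on saline 3. These 7 genes passed detection only through the arrays where they were high, so their low saline 4 is part of how they were chosen and adds nothing to the pattern of the 6 measured genes.

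The summed linear intensity of the 6 measured striatal genes was 13153, 5336, 6805 and 1899 on saline 1 to 4. Over the same arrays the sum of the 10 neuronal markers was 42813, 43237, 40236 and 39961, so that the general neuronal signal of saline 4 was near that of the others. Saline 4 weighed heavily in the spread of the striatal genes. Without it the median SD of the list was 0.73, that of Rgs9 0.93, of Tac1 0.94, of Ppp1r1b 0.73 and of Pdyn 0.28. Without saline 1 the SD of Rarb was 0.52.

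Promoters of the 2 members of the striatum list with the largest SD are shown because both were highest on saline 1 and lowest on saline 4 by a wide margin. They are RefSeq sequences of the build GRCm38.p6, each from 250 bases before to 50 after an annotated gene start, and capitals mark TATAAA, the core of a TATA box, or TGACG, the core of a cAMP response element, on either strand.
Rgs9 (chr11:109298132-109298431, minus strand): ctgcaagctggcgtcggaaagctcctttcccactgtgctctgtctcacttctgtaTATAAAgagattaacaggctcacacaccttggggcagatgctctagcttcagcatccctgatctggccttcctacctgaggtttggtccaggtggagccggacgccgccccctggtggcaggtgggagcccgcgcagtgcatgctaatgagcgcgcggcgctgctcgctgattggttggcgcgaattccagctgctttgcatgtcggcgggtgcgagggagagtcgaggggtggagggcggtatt
Tac1 (chr6:7554811-7555110, plus strand): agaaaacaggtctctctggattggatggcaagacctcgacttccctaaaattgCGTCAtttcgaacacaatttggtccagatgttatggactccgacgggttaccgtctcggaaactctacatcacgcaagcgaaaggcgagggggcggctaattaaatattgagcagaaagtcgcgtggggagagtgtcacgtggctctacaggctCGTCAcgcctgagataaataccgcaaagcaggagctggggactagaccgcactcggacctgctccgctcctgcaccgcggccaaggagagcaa
The Rgs9 window held TATAAA in 1 place and no TGACG, and the Tac1 window held TGACG in 2 places, both read on the opposite strand, and no TATAAA, so that these 2 windows shared neither string. Over all 32851 promoters of the table, 13.6% held TATAAA and 20.8% TGACG, and over the 8208 promoters of measured genes 7.08% and 31.1%. Promoters, 44 in number, were found for 26 of the 29 genes with an SD above 0.5 that were highest on saline 1 and lowest on saline 4. Of these 44, 4 (9.09%) held TATAAA and 6 (13.6%) TGACG. The share with TATAAA thus lay above that of measured genes and below that of all promoters, and the share with TGACG lay below both. Over the 104 promoters of all genes with an SD above 0.5, which include the 44, the shares were 13.5% and 15.4%. Some genes had several promoters, so the promoters are not independent. The 2 strings cannot overlap, and a match describes the letters and not a site in use.

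Choroid plexus genes set saline 3 apart from saline 4. Beside Ttr, Clic6, a chloride channel protein, had 7.92, 7.25, 9.08 and 5.86 (SD 1.34), and Kl, the anti-ageing hormone and co-receptor klotho, had 6.21, 6.92, 8.10 and 6.20 (SD 0.89). Smaller ranges were found for the sulfatase gene Sulf1 with 7.33, 7.02, 7.68 and 6.72 (SD 0.41), the ion channel gene Trpm3 (SD 0.31) and the carbonic anhydrase gene Car12 (SD 0.21). Saline 3 was highest for 5 of the 6 measured genes and saline 4 lowest for 4, against 22.8% and 25% of all measured genes.

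Another 8 choroid plexus genes were detected on some arrays only. They were included by passing detection somewhere, 5 of them on saline 3 alone, so their high values on that array were fixed by the choice and add nothing to the pattern. All 8 were detected on saline 3, against 1 on saline 1, 3 on saline 2 and 2 on saline 4, and 7 of them were highest on saline 3. Ecrg4, a secreted peptide precursor of the choroid plexus, had 5.31, 5.94, 8.18 and 5.88, and the transcription factor gene Otx2 had 5.03, 5.15, 6.42 and 5.06. Another 5 of the 19 genes with a probe were detected on no saline array. The summed intensity of the 6 measured genes was 2134, 3398, 22270 and 546.6, which Ttr dominates. Without saline 3 the median SD of the list was 0.36 against 0.65 with it, and that of Kl was 0.41.

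Most genes of the meninges were higher on saline 3 and 4. Both of these arrays lay above both saline 1 and saline 2 for 10 of the 13 measured genes. Dcn, the matrix proteoglycan decorin, had 8.72, 8.87, 10.52 and 10.82 (SD 1.09), and its second probe 6.99, 7.07, 8.85 and 9.12 (SD 1.14). Slc47a1, an organic cation exporter, had 6.34, 6.48, 7.71 and 8.14 (SD 0.90), and Ogn, the proteoglycan osteoglycin, had 6.18, 6.85, 7.49 and 7.70 (SD 0.69). Saline 3 and 4 lay above saline 1 and 2 for each of these 3 genes.

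The same was found for Slc13a4, a sulfate transporter, with 8.15, 8.25, 9.29 and 9.24 (SD 0.62), Ptgds, the prostaglandin D2 synthase of the meninges, with 10.91, 10.92, 11.40 and 11.87 (SD 0.46), Slc6a13, a GABA transporter, with 7.42, 7.53, 7.91 and 8.26 (SD 0.38), and Slc22a6, an organic anion transporter, with 6.23, 6.32, 6.43 and 7.06 (SD 0.37). Lum, the proteoglycan lumican, had 5.55, 5.54, 6.13 and 6.16 (SD 0.35), and the growth factor gene Igf2 had 10.68, 10.80, 11.37 and 10.89 (SD 0.30). The same was true of Serping1 (SD 0.15). The exceptions were Mgp, the matrix Gla protein gene, with 9.43, 8.72, 9.43 and 9.49 (SD 0.36), Igfbp2, which binds insulin-like growth factors, with 7.96, 7.62, 7.75 and 7.63 (SD 0.16) and its highest value on saline 1, and Bgn, the proteoglycan biglycan, with 8.10, 7.99, 8.05 and 8.21 (SD 0.09). Over the 13 measured genes, 9 were highest on saline 4, and the lowest array was saline 1 for 8 and saline 2 for 5. The same shares over all measured genes were 25.7%, 28% and 22.2%.

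The fibrillar collagen genes Col1a1, Col1a2 and Col3a1, which also mark meningeal fibroblasts, were detected on no saline array. The median SD of the meningeal list was 0.37, and 4 of its 13 genes (30.8%) had an SD above 0.5, against 1.2% of all measured genes. That count depended on the processing. Under the alternatives that kept all arrays, the lowest SD was 0.92 for Dcn, 0.45 for Slc47a1, 0.46 for Slc13a4 and 0.31 for Ogn. Its summed intensity was 6055, 6002, 9545 and 10412 on saline 1 to 4. Leaving out single arrays kept the median between 0.34 and 0.45, and Ogn had an SD of 0.44 without saline 1.

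**Figure D4:**
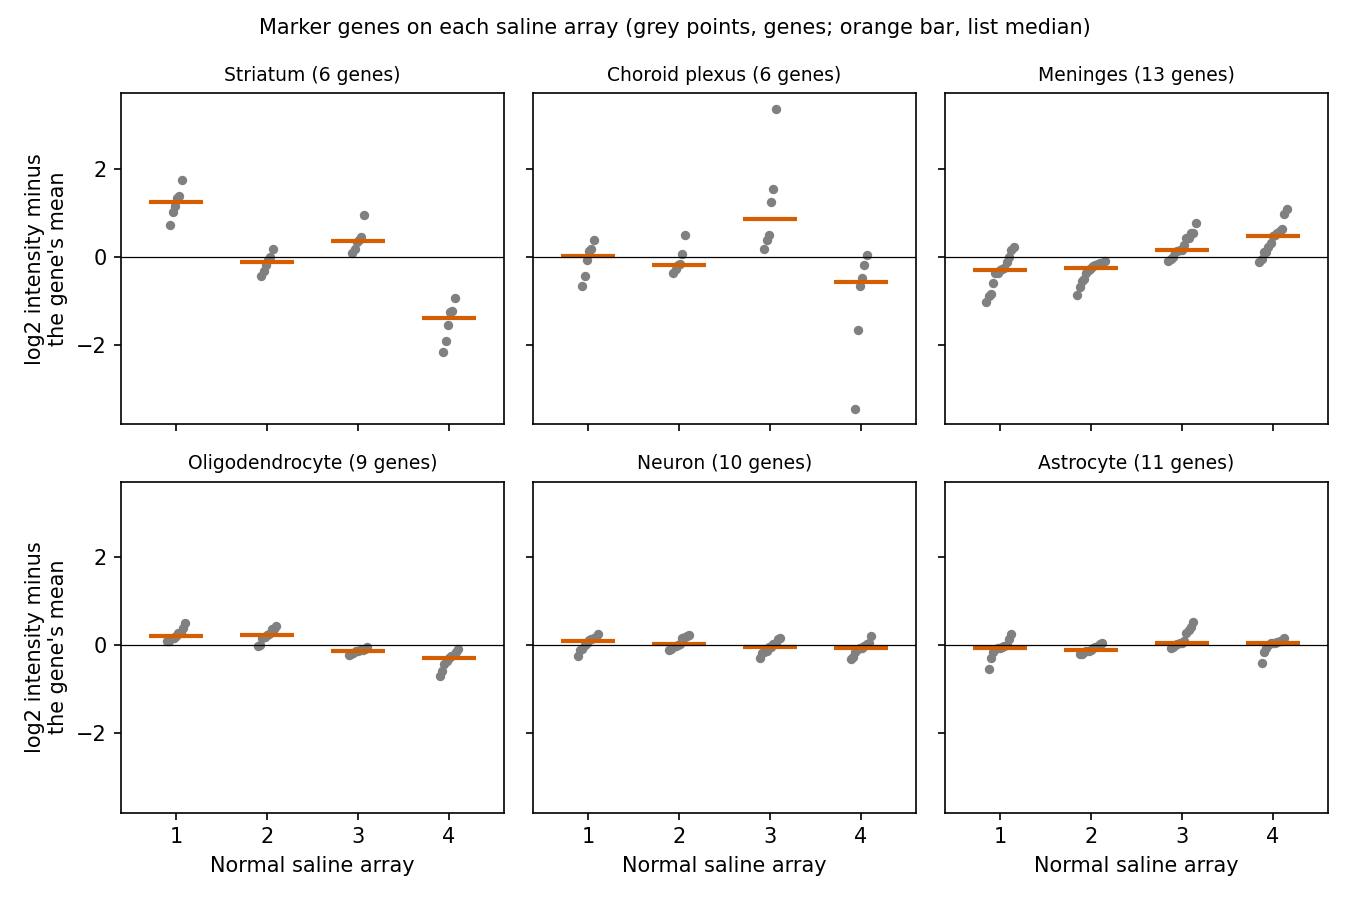
Log2 intensity minus the gene's own mean over the 4 saline arrays (y axis) for the measured genes of 6 marker lists on each array (x axis), with grey points for genes and an orange bar for the median of the list. Striatal medians run between 1.24 and -1.39 and meningeal medians between -0.29 and 0.48, while the neuronal medians stay between -0.07 and 0.09.

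Hypothalamic peptide genes were high on saline 3. Oxt, the oxytocin precursor, had 6.26, 5.86, 8.52 and 6.55 (SD 1.18), and Cartpt, a satiety peptide precursor, had 6.92, 7.19, 8.27 and 6.80 (SD 0.67). Avp, the vasopressin precursor, was detected on saline 3 and 4 only, with 4.96, 4.77, 8.74 and 5.63, and its values on saline 1 and 2 are bounds. It passed detection only through the arrays where it was high, so it adds nothing to the pattern of the measured genes. The histamine enzyme gene Hdc had 6.14, 6.61, 6.61 and 5.89 (SD 0.36).

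Trh, the thyrotropin-releasing hormone precursor, was the exception among the hypothalamic genes detected on several arrays, with 5.78, 5.30, 7.77 and 8.24 and its highest value on saline 4. It was not detected on saline 2, where its value is a bound. Of the 16 hypothalamic genes with a probe 9 were detected on no saline array, including those of orexin (Hcrt) and melanin-concentrating hormone (Pmch). Without saline 3 the SD of Oxt was 0.35 and that of Cartpt 0.20, and the median of the 3 measured genes was 0.35 against 0.67 with it. A single array thus set most of this spread.

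Myelin genes varied in a smaller, shared way. Mag, the myelin-associated glycoprotein, had 10.62, 10.66, 10.11 and 9.53 (SD 0.53), and Mobp had 9.55, 9.28, 8.86 and 8.44 (SD 0.48). Of the 9 measured oligodendrocyte genes 8 were lowest on saline 4, and none had its highest value on saline 3 or 4. Over all measured genes 25% were lowest on saline 4, and 22.8% and 25.7% were highest on saline 3 and 4. The median deviations of the oligodendrocyte list were 0.22, 0.24, -0.12 and -0.30. This list, which marks white matter, shared its low saline 4 with the striatal genes, but 5 of its 9 genes were highest on saline 2, and the medians of saline 2 and saline 3 had the opposite signs to those of the striatal list. The part of white matter in the striatal pattern was not tested. Mag had an SD of 0.31 without saline 4.

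Genes of hippocampus and thalamus were in part low on saline 1 or 2. C1ql2, a synaptic organizer of dentate granule cells, had 8.14, 7.29, 9.30 and 9.12 (SD 0.93), and Wfs1, an endoplasmic reticulum protein strong in the CA1 field, had 7.77, 8.45, 9.10 and 8.86 (SD 0.58). Of the 5 hippocampal genes 3 were lowest on saline 1 and 1 on saline 2. Kcnh3 went the other way, with 8.09, 7.98, 7.75 and 7.89 (SD 0.14) and its highest value on saline 1. The median SD of the 5 hippocampal genes was 0.49, and 0.22 without saline 1. In the thalamic list Slc17a6, a vesicular glutamate transporter, had 9.02, 9.52, 10.03 and 10.31 (SD 0.57) and Ntng1, a synaptic adhesion protein, had 8.14, 8.71, 9.39 and 9.33 (SD 0.58). Prkcd and Adarb1 of the same list had SDs of 0.17 and 0.07, so that the thalamic genes did not move as one. Without saline 1 the SD of Wfs1 was 0.33 and that of Ntng1 0.37.

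In the other regional lists fewer genes passed an SD of 0.5, which 1.2% of all measured genes passed. Among 15 cortical genes it was Rprm alone, with 8.47, 9.35, 9.41 and 9.68 (SD 0.53), and the peptide gene Cck and the transcription factor genes Mef2c and Cux2 had SDs of 0.25, 0.24 and 0.13. The SD of Cck was 0.0607 without saline 3, and those of Mef2c and Cux2 were 0.136 and 0.0751 without saline 2. Among 5 cerebellar genes it was Gabrd, a GABA receptor subunit also used in the forebrain, with 9.28, 8.61, 8.12 and 8.34. Gabrd was the only 1 of the 5 highest on saline 1, and 2 were highest on saline 3 and 2 on saline 4. Cbln1, for example, had 7.92, 8.28, 8.69 and 8.92 (SD 0.44). The median deviations of the cerebellar list were -0.28, -0.24, 0.17 and 0.27, and its median SD was 0.41. Rprm and Gabrd rested on saline 1, without which Rprm had an SD of 0.17 and Gabrd one of 0.24. Among 3 olfactory bulb genes it was none, Cdhr1 of mitral cells being the widest with 6.42, 6.23, 7.33 and 6.90 (SD 0.49). Without saline 1 the median SD of the olfactory genes was 0.20 against 0.32 with it. Ependyma and midbrain dopamine neurons had 1 measured gene each, Rsph1 of motile cilia (SD 0.23) and the decarboxylase gene Ddc (SD 0.12), and Ddc without saline 4 had 0.05.

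For 5 lists of cell types found throughout the brain the median SD was lower than in each regional list with at least 3 measured genes. The median SD was 0.121 for 11 astrocyte genes, 0.156 for 10 neuronal, 0.165 for 9 microglial, 0.164 for 8 endothelial and 0.168 for 5 mural genes, against 0.242 for the thalamic list, the lowest of those regional medians. The oligodendrocyte list was not among these 5, and its median of 0.300 lay above the thalamic median and the cortical one of 0.251. The lists also differed in brightness, with which the SD falls. Their median log2 intensity was 11.87 for neuronal, 10.20 for astrocyte and 7.77 for microglial genes, against 7.85 for thalamic and 6.80 for hypothalamic genes. None of the 43 genes of these 5 lists passed an SD of 0.5, but at the share of 1.2% over all genes a set of this size would hold few or none, and the count says nothing particular of these cells. The widest members were Gfap, the astrocyte filament protein, with 6.08, 6.57, 7.14 and 6.69 (SD 0.43), smooth muscle actin (Acta2) with 10.03, 9.65, 9.39 and 9.15 (SD 0.38), and the microglial receptor gene Trem2 with 6.99, 6.49, 6.99 and 6.47 (SD 0.29). The glutamate transporter gene Slc1a2 of astrocytes had 10.12, 10.23, 10.20 and 10.26 (SD 0.06). The endothelial median was 0.108 without saline 1 and the mural median 0.087 without saline 4.

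**Figure D5:**
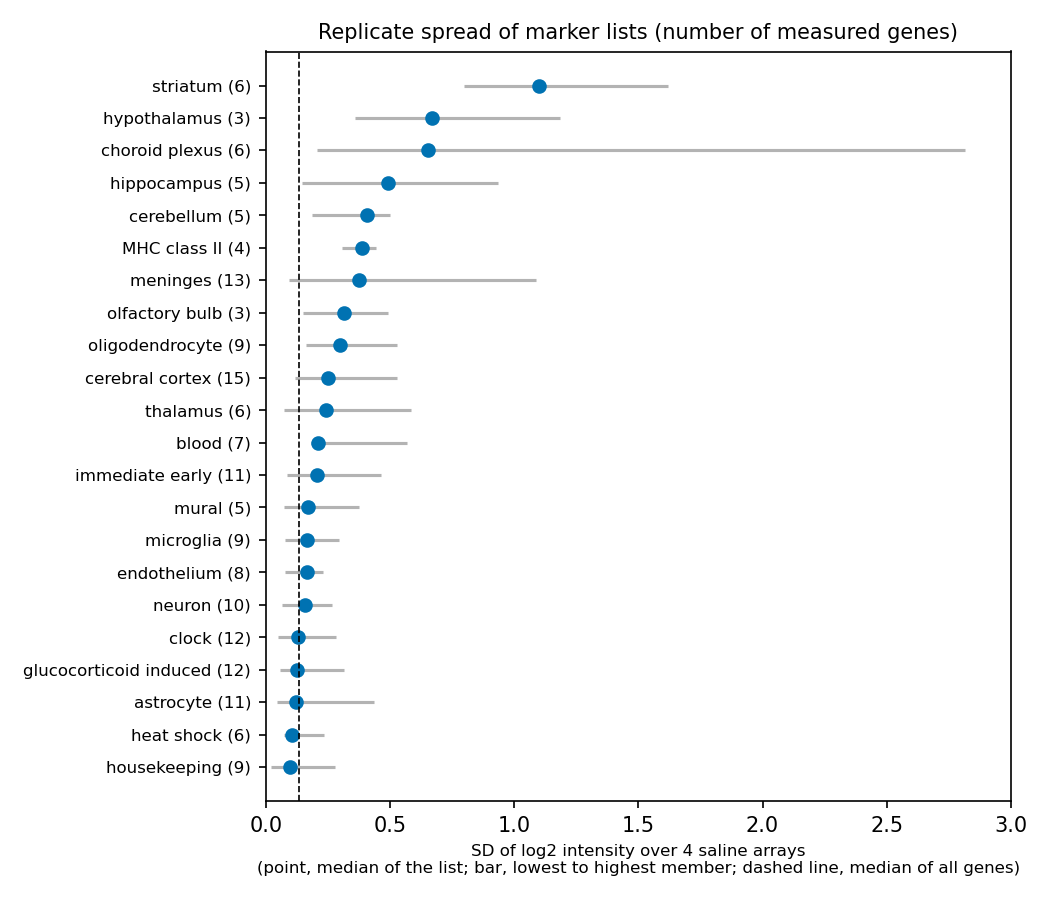
SD of log2 intensity over the 4 saline arrays (x axis) for the marker lists with at least 3 measured genes, ordered by their median (blue point), with a bar from the lowest to the highest member and a dashed line at the median of all genes, 0.135. The striatal median of 1.10 and the choroid plexus and hypothalamic medians of 0.65 and 0.67 lie to the right, and the housekeeping median of 0.098 lies farthest to the left.

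Blood gave a mixed picture. Beside Hba-a1, Hbb-b2, a beta globin, had 9.33, 8.90, 9.24 and 9.14 (SD 0.19), Hbb-bt 7.39, 7.06, 7.43 and 7.04 (SD 0.21), and Alas2, the heme synthesis enzyme of red cell precursors, 7.41, 6.91, 7.29 and 7.19 (SD 0.21). Saline 1 and 3 were above saline 2 and 4 for these 4 genes. S100a8, a calcium-binding protein of neutrophils, had 7.10, 6.09, 6.10 and 5.80 (SD 0.57). S100a9, its partner, was detected on saline 1 alone, with 6.14. It passed detection only through that array, so its high value there adds nothing to that of S100a8. Without saline 1 the SD of S100a8 was 0.17. The T cell gene Cd3e (SD 0.22) and the red cell anion exchanger gene Slc4a1 (SD 0.24) were near the detection limit. Of 10 skeletal muscle genes 8 were on no saline array, and the measured Acta1 and Myl1 had SDs of 0.22 and 0.11, and without saline 3 their median was 0.107.

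The 4 measured genes of MHC class II presentation, which displays antigen on immune cells, were all highest on saline 3, against 22.8% of all measured genes. The invariant chain gene Cd74 had 7.27, 7.35, 8.04 and 7.83 (SD 0.38), H2-Ab1 had 6.46, 7.02, 7.46 and 7.33 (SD 0.45), H2-Ea had 6.88, 7.34, 7.85 and 7.29 (SD 0.40) and H2-Eb1 had 6.33, 6.44, 6.76 and 6.02 (SD 0.31). Their median SD was 0.39. Saline 3 was also the array with the highest choroid plexus genes, and the part of that tissue in these values was not tested.

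Genes that report the state of the animal had median SDs between 0.106 and 0.208 by list. Immediate early genes, which neurons switch on within minutes of activity, had a median SD of 0.208 over 11 genes. Of the 11, 7 were lowest on saline 3, against 24.8% of all measured genes. Arc, an activity-induced synaptic protein, had 9.51, 9.32, 8.65 and 9.0 (SD 0.38), Egr1 had 13.17, 13.09, 12.73 and 12.93 (SD 0.19), Egr2 an SD of 0.11, Egr4 0.16, Dusp1 0.17, Fosb 0.26 and Junb 0.08, and these were the 7. Fos, by contrast, had 8.70, 9.15, 9.01 and 9.27 (SD 0.24), Jun 7.39, 7.48, 8.04 and 8.37 (SD 0.46) and Nr4a2 6.94, 7.78, 7.59 and 7.70 (SD 0.38), each lowest on saline 1. The immediate early genes thus did not order the 4 brains in one way.

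Glucocorticoid-induced genes had a median SD of 0.125 over 12 genes, clock genes 0.130 over 12 and heat shock genes 0.106 over 6. Mt2, a metallothionein, was the widest of the glucocorticoid list with 6.63, 5.90, 6.12 and 6.40 (SD 0.32), and Fkbp5, which holds back glucocorticoid receptor signaling, had 7.18, 7.17, 7.23 and 7.46 (SD 0.13). The clock output gene Tef had 9.65, 9.38, 9.12 and 9.74 (SD 0.28), and Per2 had 9.15, 8.94, 8.89 and 9.0 (SD 0.11). The clock median was 0.0839 without saline 1. The chaperone gene Hsp90aa1 had 8.40, 8.80, 8.86 and 8.91 (SD 0.23), whereas Hsph1 had an SD of 0.09.

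A pair of opposite patterns over the arrays held many of the variable genes. Of all 92 variable genes, 29 (31.5%) were highest on saline 1 and lowest on saline 4, against 11.3% of all measured genes, and 21 (22.8%) were highest on saline 4 and lowest on saline 1, against 11.5%. Saline 1 was the highest array for 43 of the 92 and saline 2 for 5. These shares describe genes picked by their spread on the same arrays and carry no test.

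In the first pattern, with saline 1 highest and saline 4 lowest, were Scn4b, Strip2 with 7.80, 7.04, 7.48 and 5.43 (SD 1.05), Actn2, an actin crosslinker of dendritic spines, with 8.57, 6.98, 7.18 and 6.27 (SD 0.96), and Rem2, an activity-regulated GTPase, with 8.89, 8.31, 8.24 and 6.67 (SD 0.95). Onecut2, a transcription factor, had 7.97, 7.18, 6.52 and 5.97 (SD 0.86), and Medag had 8.37, 7.99, 6.77 and 6.68 (SD 0.85), with 0.77 for its second probe. Strip2 had an SD of 0.38 and Rem2 of 0.35 without saline 4, and Actn2 one of 0.47 without saline 1. On saline 4 Strip2 was near the lowest detected value of 5.42, and its SD fell as low as 0.42 under the processing alternatives that kept all arrays.

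Several further genes of this pattern, named after their values were seen, are known from the striatum. Their order over the arrays was fixed by picking them from this pattern, and it adds nothing to that of the 6 measured striatal genes. The same pattern also held S100a8 of the blood list, and Neu2, Dmkn and Ky, which were in no list. The phosphodiesterase gene Pde1b had 12.60, 11.53, 11.69 and 10.90 (SD 0.70), Gng7, the gamma subunit of the G protein that couples striatal D1 receptors, had 11.80, 10.78, 11.10 and 10.16 (SD 0.68), and the transcription factor gene Foxp1 had 8.80, 8.15, 7.59 and 7.11 (SD 0.73). Nt5e, which makes adenosine outside cells, had 7.91, 6.93, 6.98 and 6.33 (SD 0.65). The striatal phosphatase gene Ptpn5 differed slightly in order, with 7.60, 7.66, 7.06 and 6.57 (SD 0.51). Without saline 1 the SD was 0.42 for Pde1b and 0.36 for Nt5e, and without saline 4 it was 0.33 for Ptpn5.

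The opposite pattern, with saline 4 highest and saline 1 lowest, held Dcn, Slc47a1, Ogn, Slc17a6 and Rprm from the lists. Beyond these it held, again named after their values were seen, the gastrin-releasing peptide gene Grp with 7.25, 7.89, 8.20 and 8.85 (SD 0.66), the huntingtin-associated protein gene Hap1 with 10.91, 11.08, 12.10 and 12.13 (SD 0.65) and Ly6h with 11.30, 11.76, 12.38 and 12.42 (SD 0.54). Apaf1, which assembles the apoptosome, had 7.38, 8.29, 8.53 and 9.0 (SD 0.68), and 0.36 without saline 1.

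Highest on saline 3 without belonging to a list were Calb2, the calcium buffer calretinin, with 7.50, 7.22, 9.31 and 9.07 (SD 1.07), and Igsf1, a membrane glycoprotein of the X chromosome, with 5.60, 5.64, 7.55 and 6.76 (SD 0.94) and a second probe at 5.57, 5.80, 7.46 and 6.51 (SD 0.85). On saline 1 and 2 Igsf1 was near the lowest detected values of 5.45 and 5.4. Its SD fell as low as 0.37 under the processing alternatives that kept all arrays. Hes5, a Notch target of neural stem cells and glia, had 6.0, 5.90, 7.15 and 6.65 (SD 0.59), but a second probe of it had an SD of 0.28. Of the 92 variable genes 5 (5.43%) lie on the X chromosome, as do 261 of all 7654 measured genes (3.41%).

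Genes with several detected probes gave a check within the same arrays. Among 12 variable genes with at least 2 detected probes, the second probe had its highest value on the same array as the first for 12 and its lowest on the same array for 9, against 36.5% and 37.0% of all 1788 such genes. The second probe had an SD above 0.5 itself for 6 of the 12. Rarb had an SD of 0.80 at its first probe and 1.03 at its second, Ntng1 0.58 and 0.73, and Cartpt 0.67 and 0.66. Both probes read the same RNA, so they bear on the probe and not on the animal.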

How the data were processed

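Brain RNA on the 4 arrays labelled normal saline was described, without comparison with the methanol arrays. The authors hybridised MouseRef-8 arrays, scanned them with the BeadArray Reader and processed them in GenomeStudio, with cubic spline normalization according to their methods. Of the 2 intensity tables deposited, the one called non-normalized had identical sorted values in all columns, so it had been normalized, and it also gave the deposited detection p-values. The other, with intensity not normalized between arrays, was used. Depth does not apply to arrays, and 4 arrays set the precision.

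The normexp background correction drew on the detection p-values (nec in limma 3.58.1 under R 4.3.3, offset 16), the 4 saline arrays were quantile normalized, and log2 taken. Background correction widens the differences of dim probes. The procedure was also run on simulated data, in which the median SD recovered for brighter probes lay below the simulated one. The median SD of 4 draws lies below the true SD even without processing, so this outcome says nothing of the procedure. Dim probes were not scored. Probes with a detection p under 0.05 on all 4 arrays were kept, and genes were taken from those with 1 symbol in the platform annotation of GEO, 1719 of the 25697 probes having no symbol and none several. The brightest probe stood for its gene. SD is the sample SD of log2 intensity over 4 arrays. No test was run, since 1 group was described. Tables were made with Python 3.11.15 and pandas 2.3.3.

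The genes to be named were the 20 brightest, the 20 with the largest SD, the 10 with the smallest SD above the median brightness, and in each marker list the brightest, most and least variable members, with any member of the choroid plexus, meninges, striatum, hypothalamus, pituitary, immediate early, blood and sex-linked lists. The arrays, the members and the lists were chosen with earlier results of these data known. Alternatives were no background correction, the deposited normalized table, all 8 arrays processed together, median scaling, an offset of 50, a detection p under 0.01 or no detection filter, the mean over probes, an SD relative to genes of similar brightness, and leaving out each array.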

Additional observations from a re-analysis of the deposited data

Results flagged for a closer look

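Of 224 named or listed genes examined for 1 array far from the other 3, 9 stood out, and chance alone does so in about 1 of 20 groups. The share of 9 in 224 is no larger than that, so the flags only describe the arrays. Saline 1 stood apart for Dbp, a clock output gene (11.59 against 11.18 to 11.25, SD 0.188), Eno2, the neuronal enolase (13.23 against 13.04 to 13.07, SD 0.088), Aldh1l1 of astrocytes (7.67 against 7.86 to 7.88, SD 0.104) and Scg5 (12.46 against 12.45 on each other array, SD 0.005). The un-normalized intensities of Scg5 were 5766.7, 5882.5, 5728.6 and 5567.5 on saline 1 to 4, so that saline 1 stood apart only after normalization. Saline 2 stood apart for the meningeal matrix gene Mgp (8.72 against 9.43 to 9.49, SD 0.364), the red cell gene Slc4a1 (5.97 against 5.45 to 5.50, SD 0.244) and the chaperone partner Bag3 (8.19 against 8.04 to 8.05, SD 0.074). Snrpn had 13.997 on saline 3 against 14.08 to 14.10 on the others (SD 0.045), and the pericyte gene Rgs5 had 8.17 on saline 4 against 8.48 to 8.54 (SD 0.168). Saline 2 was the low array for Mgp, unlike most meningeal genes, which were lowest on saline 1.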

How the results depend on the processing

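The median SD over probes was 0.139, and it was 0.0768 without background correction and 0.0769 in the deposited normalized table. The probes with an SD above 0.5, 105 as described, numbered 26 under both of these, 63 with an offset of 50 and 202 with no detection filter. Those with an SD above 1, 13 as described, numbered 5, 5, 7 and 27 under the same 4 alternatives. With no detection filter all 25697 probes counted in place of 10555, and 10 of the 20 most variable genes remained among the 20. Without background correction 14 of these 20 genes remained, and 14 also remained with the deposited normalized values. Ranked by an SD relative to genes of similar brightness, 15 remained. With an offset of 50 it was 18, and 19 when probes of a gene were averaged. Of the 20 brightest genes 13 remained when probes of a gene were averaged. When each array was left out in turn, probes with an SD above 0.5 numbered 80 to 176, and 12 to 17 of the 20 most variable genes remained, the fewest without saline 4. Processing all 8 arrays together, median scaling and a detection p under 0.01 moved none of these counts by 1.5 times, and 18 to 20 of the 20 most variable genes remained under them. For 224 named or listed genes the SD stayed within 1.5 times of its value for all when the 8 arrays were processed together, for 215 with an offset of 50, for 199 with median scaling and for 131 without background correction.

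Differences among dim probes are limited by background, and a value below detection is only a bound. No paired analysis was possible because 1 group was described and no test was run.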
